A study of Mus musculus with 6 samples.

Results

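Liver RNA of LiKM and LiK mice was compared for the Toll-like receptors, the NOD-like receptors and the NF-kB genes, the sensors and transcription factors with which cells answer microbes and tissue damage. The genes were chosen by name from a table of 26608 gene symbols: every symbol that starts with Nlr or Naip or with Tlr and a digit, plus a set of named adaptors, kinases, cofactors, DNA sensors and NF-kB genes. Of the 61 symbols that matched, 48 had at least 10 counts over the 6 mice and are described here, and 13 had fewer. Of the 48, 44 passed the expression filter and were tested between the genotypes. Tlr11, Nod2, Nlrp10 and the pseudogene Nlrp1c-ps were too scarce to be tested.

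There were 3 LiKM and 3 LiK mice, all 6 weeks old, with 1 whole-liver library from each. The labels do not spell out the genotype names. The published study, rather than the labels, is the source for what follows: LiKM hepatocytes lack Mdm2, through a Cre recombinase under the albumin promoter. Mdm2 is the ubiquitin ligase that keeps p53 at a low level. The labels do not say whether other liver cells keep the gene. Alleles that both genotypes share are not described here. The comparison therefore asks what hepatocyte loss of Mdm2 adds to the LiK liver. Mdm2, whose gene-level count sums all exons and so cannot show a deletion, had 122, 125 and 60.5 CPM in LiKM mice, against 28.7, 29.0 and 28.6 CPM in LiK mice. Levels are given in CPM, counts brought to the same library size.

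The libraries held 19909993 to 20762712 counts in LiKM mice, against 20778717 to 24874343 counts in LiK mice. The members together had 14359 to 16322 counts in LiKM libraries and 14124 to 17434 in LiK libraries. LiKM mouse 3 stood apart from its own group. On the second principal component of all genes, which held 19.8% of the variance, it lay at -33.2, against 24.4 and 19.8 for LiKM mice 1 and 2 and -13.6 to 7.27 for the LiK mice. Fold changes without it stand beside the members that it moved most. LiK mouse 3 also lay apart from its group. On the first component, with 51.8% of the variance, it was at -19.8, against -39.2 and -33.8 for LiK mice 1 and 2. The LiKM mice were at 19.2, 34.5 and 39.1 there. The livers matched their label, with summed hepatocyte markers at 117874 to 134777 CPM in LiKM mice and 113517 to 137496 CPM in LiK mice. Most of that sum was Alb, and the hepatocyte markers taken singly are described below.

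Toll-like receptors recognise microbial lipids, proteins and nucleic acids at the cell surface or in endosomes. Most of them signal through the adaptor Myd88, the Irak kinases and the ligase Traf6, which release NF-kB from its inhibitors so that it can switch on inflammatory genes. NOD-like receptors work in the cytosol, where some build inflammasomes that activate interleukin 1 beta and others act on NF-kB or on antigen presentation. In liver, the macrophages called Kupffer cells are the best known users of these receptors, and hepatocytes, endothelial and stellate cells express some of them as well. In bulk tissue, fewer cells of a type and less RNA per cell cannot be told apart.

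A few of these genes were higher in LiKM livers and none passed the test as lower. The quasi-likelihood test of edgeR, with p adjusted by Benjamini-Hochberg over all 13537 genes tested, called 4 of the 44 higher at an adjusted p under 0.05, namely Nlrc5, Tlr1, Tlr13 and Tmem173. Where no other tool is named, a call is one of this test. That is 9.09% of them, beside a background of 5.11% of all genes called higher and 5.92% called in either direction. In the other direction edgeR called 0, beside a background of 0.813%, with 2 lower at an unadjusted p under 0.05 (Nlrp6 and Tlr5; background 7.05%), and DESeq2 and limma-voom each called Nlrp6 lower. At an unadjusted p under 0.05, 15 of the 44 were higher, beside 15.4% of all genes (2078 of 13537).

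The members leaned towards LiKM without most of them being called. A positive log2 fold change, LiKM over LiK, was seen in 33 of the 44, beside 49.5% of all genes, and their median was 0.43, against -0.003 over all genes. In 18 of the 44 each LiKM mouse lay above each LiK mouse, beside 17.8% of all genes (2408 of 13537). In 2 of the 44 (Nlrp6 and Tlr5) each lay below, beside 11.8% (1602 of 13537). Of the tested members, 7 (Nlrp3, Nlrp1b, Naip1, Nlrc3, Nlrc4, Tlr6 and Tlr9) did not reach the filter's level in all 3 LiK libraries. Such members can pass the filter through their LiKM counts, so these counts and the median are a description only.

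**Figure D1:**
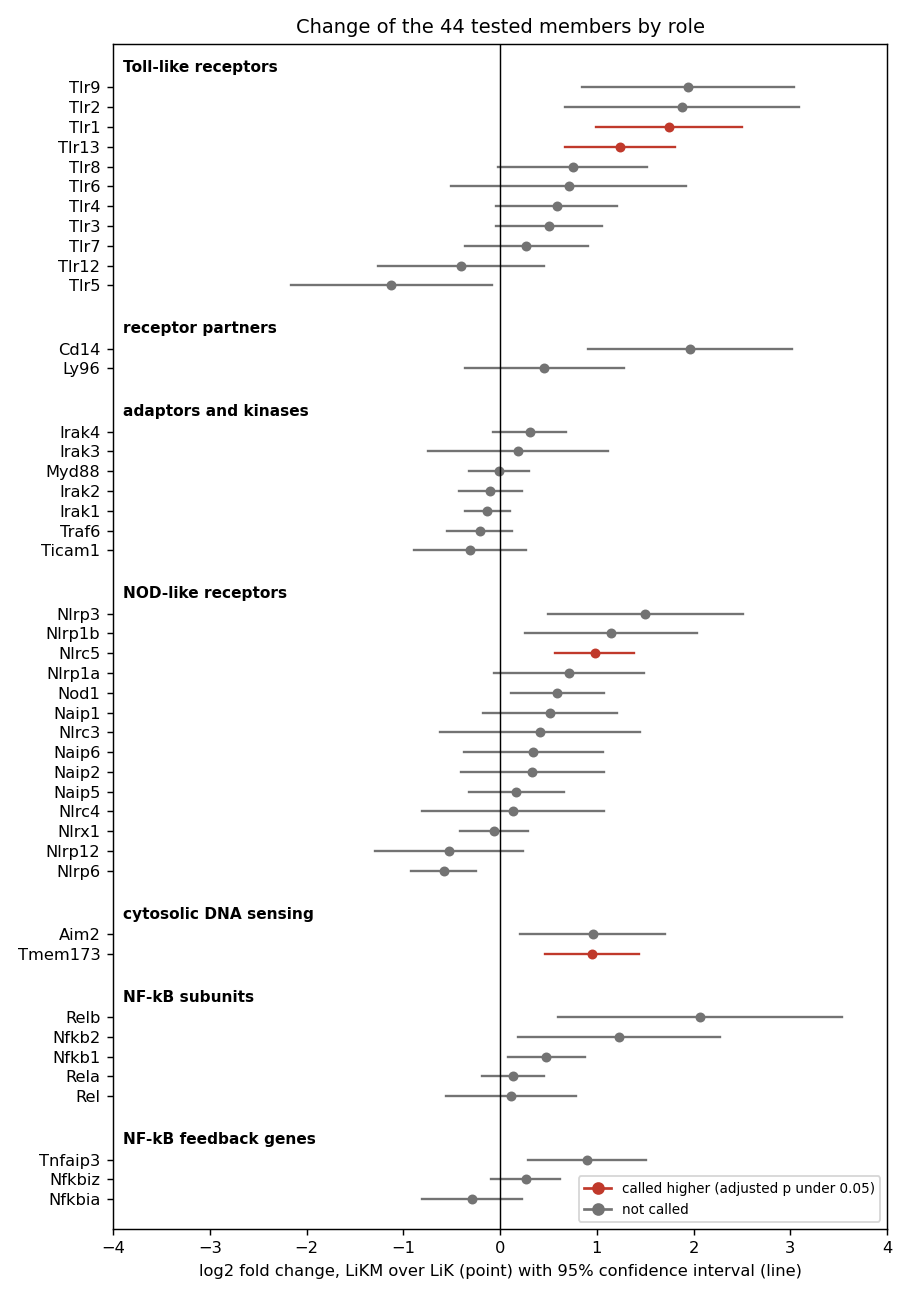
Log2 fold changes (LiKM over LiK, points) of the 44 tested genes with 95% confidence intervals (lines), in blocks by role, 3 mice per genotype. The 4 called genes are red; the adaptors and kinases lie around 0, while Relb, Cd14, Tlr9 and Tlr2 have the highest values and wide intervals.

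The calls were fragile with 3 mice a genotype. Without LiKM mouse 1, 3 members were called higher (Cd14, Nlrc5 and Tlr1), and without LiKM mouse 3, 2 were (Cd14 and Nlrc5). Without LiK mouse 3 only Tlr1 was called, and without LiKM mouse 2, LiK mouse 1 or LiK mouse 2 edgeR called none. Calls over all genes also fell in those fits, to between 0.13% and 3.83% of all genes higher. The test against a 1.5-fold change called 0 of the members. DESeq2's Wald test called 11 of the 44 members higher, beside a background of 8.98% of all genes in that test (1214 of 13523). It called 1 lower, beside 2.79%. Tlr9 and Nlrp3, among the 11, did not reach the filter's level in all 3 LiK libraries.

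Among the Toll-like receptors, Tlr1 and Tlr13 rose. Of the 11 tested, edgeR called 2 higher (18.2%, beside 5.11% of all genes) and 0 lower. At an unadjusted p under 0.05, 4 were higher and 1 lower, beside 15.4% and 7.05% of all genes. DESeq2 called 4 higher, Tlr9 among them, and 0 lower, beside 8.98% and 2.79%. Tlr1, which pairs with Tlr2 to recognise bacterial lipopeptides, had 2.26, 3.58 and 2.89 CPM in LiKM mice, against 0.626, 0.805 and 1.15 CPM in LiK mice. The lowest LiKM mouse lay well above the highest LiK mouse. Tlr1 rose by 1.74 (SE 0.32) on the log2 scale (edgeR, Benjamini-Hochberg adjusted p = 0.0307), with adjusted p from 0.0478 to 0.109 when any 1 mouse was left out.

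The stretch around a start of Tlr1 is shown because it holds a match to the core of PU.1, a transcription factor of myeloid cells. The window runs from 250 bases before to 50 after the start in RefSeq for GRCm38.p6, chr5:64933509-64933808 on the minus strand. It is printed 5′ to 3′ with the match, the letters GAGGAAGT, in capitals.
Tlr1: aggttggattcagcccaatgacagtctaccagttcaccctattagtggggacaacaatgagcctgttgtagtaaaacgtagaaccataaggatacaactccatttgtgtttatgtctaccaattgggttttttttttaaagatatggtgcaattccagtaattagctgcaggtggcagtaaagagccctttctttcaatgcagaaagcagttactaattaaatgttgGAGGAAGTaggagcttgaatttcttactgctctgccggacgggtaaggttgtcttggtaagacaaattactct
The core was searched on both strands, and the motif was chosen after the expression values were seen. RefSeq windows were found for 37 of the 48 members, 48 windows in all. The PU.1 core was in a window of 7 members (18.9%), Aim2, Nlrp1a, Nlrp1b, Rel, Tlr1, Tlr11 and Tlr9, beside 3.69% of genes with a window. A match describes the letters and does not show that the factor binds there.

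Tlr13, an endosomal receptor for bacterial ribosomal RNA in mice, had 2.96, 3.58 and 2.89 CPM in LiKM mice, against 1.25, 1.61 and 1.15 CPM in LiK mice. The mice of each genotype lay close together, and the groups did not overlap. Tlr13 rose by 1.24 (SE 0.24) on the log2 scale (edgeR, Benjamini-Hochberg adjusted p = 0.0348). The call was lost whenever any 1 mouse was left out, with adjusted p from 0.0516 to 0.132.

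Tlr2 and Tlr9 had the largest fold changes of the family but were not called. Tlr2, the lipopeptide receptor that pairs with Tlr1 or Tlr6, had 3.15, 4.13 and 11.8 CPM in LiKM mice, against 1.69, 1.46 and 2.01 CPM in LiK mice. All LiKM mice were above the LiK mice, but LiKM mouse 3 was far above the other two. The log2 fold change was 1.88 (SE 0.52, edgeR adjusted p = 0.0815), and 1.06 without LiKM mouse 3. Tlr9, the endosomal sensor of unmethylated DNA, was scarce, with 12, 16 and 22 counts in LiKM libraries, against 2, 5 and 6 counts in LiK libraries. Its log2 fold change was 1.94 (SE 0.47, edgeR adjusted p = 0.0584), and DESeq2 called both genes higher. Tlr9 reached the filter's level in all 3 LiKM libraries and in 0 LiK libraries. It was thus tested through its LiKM counts, and its DESeq2 call is a description only.

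Tlr5 went the other way. This receptor for bacterial flagellin had 2.16, 0.817 and 2.27 CPM in LiKM mice, against 2.84, 5.59 and 3.04 CPM in LiK mice. The groups did not overlap, but LiKM mouse 2 and LiK mouse 2 lay apart from their own groups. The log2 fold change was -1.13 (SE 0.44), which edgeR did not call (adjusted p = 0.191). Tlr3, the sensor of double-stranded RNA, had 5.69, 8.30 and 8.29 CPM in LiKM mice, against 4.24, 4.98 and 6.44 CPM in LiK mice. LiKM mouse 1 lay below the highest LiK mouse, and the log2 fold change was 0.51 (95% interval -0.04 to 1.05).

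The remaining receptors were not called. Tlr12, which senses a protozoan profilin in mice, had 3.01, 4.22 and 2.80 CPM in LiKM mice, against 3.03, 3.27 and 6.94 CPM in LiK mice, so that a single LiK mouse stood out. Its log2 fold change was -0.41, and it was 0.082 without that mouse. Tlr4, the receptor for bacterial lipopolysaccharide, had 2.30, 2.40 and 1.64 CPM in LiKM mice, against 1.59, 1.46 and 1.19 CPM in LiK mice. These did not overlap, but the log2 fold change of 0.58 (95% interval -0.04 to 1.21) was not called. The RNA sensors Tlr7 and Tlr8 had log2 fold changes of 0.27 and 0.75, and Tlr6, a partner of Tlr2, had 0.71. Tlr11, untested, had 17, 17 and 9 counts in LiKM libraries, against 10, 6 and 6 counts in LiK libraries.

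The partners of Tlr4 are Cd14, which hands lipopolysaccharide and lipopeptides to the receptors, and Ly96, which holds the lipid in the Tlr4 complex. Cd14 had 4.70, 6.03 and 14.8 CPM in LiKM mice, against 1.83, 2.57 and 2.13 CPM in LiK mice. Each LiKM mouse lay above each LiK mouse, with LiKM mouse 3 again far above the others. With a log2 fold change of 1.96 (SE 0.45), it narrowly missed the threshold (edgeR, Benjamini-Hochberg adjusted p = 0.0508). Without LiKM mouse 3, the log2 fold change was 1.28 and Cd14 was called (edgeR adjusted p = 0.0398), and DESeq2 called it with all mice. Ly96 had 3.01, 1.68 and 4.19 CPM in LiKM mice, against 2.02, 2.52 and 1.93 CPM in LiK mice, and these overlapped. Its log2 fold change was 0.46 (95% interval -0.37 to 1.28), and 0.10 without LiKM mouse 3.

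**Figure D2:**
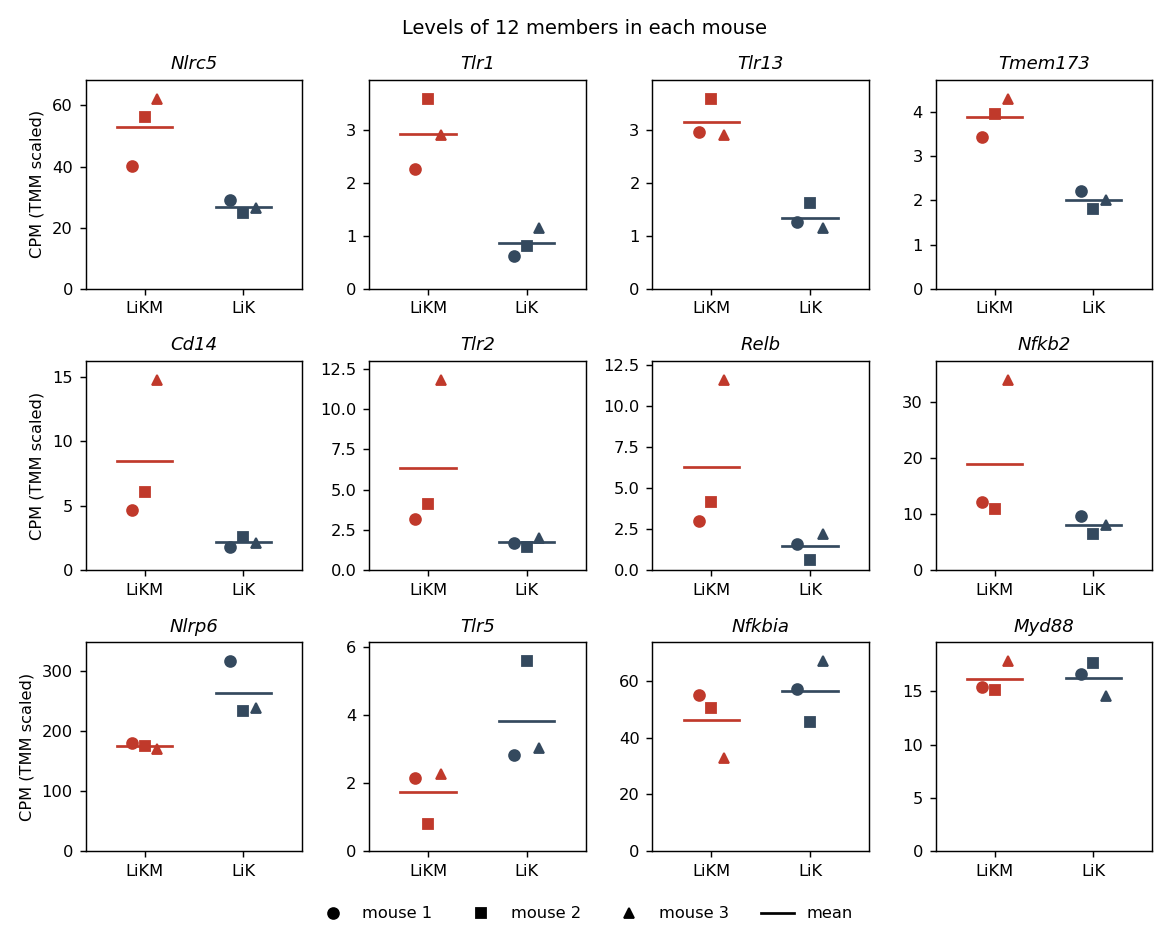
Levels in CPM (linear axes from 0) of 12 genes in each mouse, with LiKM left and LiK right in each panel; marker shapes show the mouse number and lines the mean. The top row holds the 4 called genes; in the middle row LiKM mouse 3 (triangle) lies far above the other LiKM mice, as with Cd14 at 14.8 CPM, while Nlrp6 and Tlr5 lie lower in LiKM and Myd88 overlaps.

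The shared adaptors and kinases held no calls. None of the 7 was called by edgeR, DESeq2 or limma-voom, 0 had an unadjusted p under 0.05, and their median log2 fold change was -0.10. Of all genes, edgeR called 5.11% higher, DESeq2 8.98% and limma-voom 7.85%. At an unadjusted p under 0.05, 15.4% were higher and 7.05% lower. With 7 genes, 0 calls lie near these shares. Myd88, the adaptor of nearly all Toll-like receptors, had 15.4, 15.2 and 17.8 CPM in LiKM mice, against 16.6, 17.6 and 14.5 CPM in LiK mice. The groups overlapped fully, and the interval of the log2 fold change ran from -0.32 to 0.29. Exons of Myd88 overlap those of Acaa1a on the other strand in the GENCODE vM21 annotation, and whether reads were counted by strand is not stated in the labels, so part of its count is uncertain.

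Irak1, a kinase that acts next to Myd88, had the highest level of these per exon length. It had 66.2, 68.4 and 72.1 CPM in LiKM mice, against 69.9, 79.0 and 77.9 CPM in LiK mice, which overlapped slightly (log2 fold change -0.13). Irak2, a related kinase, had 19.1, 23.9 and 25.4 CPM in LiKM mice, against 26.4, 22.8 and 24.0 CPM in LiK mice, also overlapping (-0.10). Both signs turn when libraries are scaled by their totals alone, to 0.023 for Irak1 and 0.064 for Irak2. Ticam1, the adaptor of Tlr3 and of endosomal Tlr4, had 26.8, 19.8 and 15.4 CPM in LiKM mice, against 31.7, 25.6 and 19.5 CPM in LiK mice, and these overlapped (-0.31). Irak4, the kinase upstream of Irak1, Irak3, which restrains the pathway, and Traf6 had log2 fold changes of 0.31, 0.19 and -0.21.

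Of the NOD-like receptors, Nlrc5 rose. It is the transactivator of major histocompatibility complex class I genes and is itself induced by interferon gamma. Nlrc5 had 40.0, 56.2 and 62.2 CPM in LiKM mice, against 29.0, 24.9 and 26.5 CPM in LiK mice. The lowest LiKM mouse lay above the highest LiK mouse. Nlrc5 rose by 0.98 (SE 0.17) on the log2 scale, with the smallest adjusted p of the members (edgeR, Benjamini-Hochberg adjusted p = 0.0273). The adjusted p ran from 0.0224 to 0.107 over the 6 fits that leave out 1 mouse. It was called in 2 of these, the ones without LiKM mouse 1 and without LiKM mouse 3.

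Across the family, edgeR called 1 of 14 tested higher (7.14%, beside 5.11% of all genes) and 0 lower. At an unadjusted p under 0.05, 4 were higher and 1 lower, beside 15.4% and 7.05% of all genes. DESeq2 called 2 higher and 1 lower, beside 8.98% and 2.79%. Nlrp6, a receptor known from intestinal epithelium that liver expresses too, had the highest level of all members per exon length. It had 180, 175 and 171 CPM in LiKM mice, against 316, 233 and 239 CPM in LiK mice. The LiKM mice lay within a narrow range below all LiK mice, among which LiK mouse 1 was the highest. The log2 fold change was -0.58 (SE 0.14), which edgeR did not call (Benjamini-Hochberg adjusted p = 0.0598), while DESeq2 and limma-voom did. Nlrp6 alone took 24.6% ± 2.54 of the members' counts in LiKM mice and 35.1% ± 3.36 in LiK mice (SD, n = 3 each).

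Nlrp3 and Nlrp1b, which form inflammasomes, lay higher in every LiKM mouse, and edgeR called neither. Nlrp3 had 0.893, 1.18 and 2.27 CPM in LiKM mice, against 0.578, 0.403 and 0.533 CPM in LiK mice. LiKM mouse 3 was the highest, and the log2 fold change of 1.5 (SE 0.43, edgeR adjusted p = 0.0923) was 1.01 without it. DESeq2 called Nlrp3 higher (adjusted p = 0.0485), but it reached the filter's level in only 2 of the 3 LiK libraries. Nlrp1b had 0.752, 1.13 and 1.40 CPM in LiKM mice, against 0.337, 0.604 and 0.533 CPM in LiK mice, with a log2 fold change of 1.14. The Nlrp1 genes are near copies of each other, as are the Naip genes, so the split of reads between the copies is uncertain. Nlrp1a had a log2 fold change of 0.71.

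Nlrp12, which dampens inflammatory signalling, had 35.9, 16 and 42.5 CPM in LiKM mice, against 51.7, 44.7 and 39.9 CPM in LiK mice. LiKM mouse 2 was far lower than the rest, and the groups overlapped through LiKM mouse 3 (log2 fold change -0.53). Exons of Nlrp12 overlap a cluster of microRNA genes on the other strand. Nod1, the cytosolic sensor of bacterial peptidoglycan, had 13.5, 19.4 and 21.5 CPM in LiKM mice, against 10.3, 14.0 and 11.8 CPM in LiK mice. LiKM mouse 1 lay below the highest LiK mouse, and the log2 fold change of 0.59 was not called by edgeR (adjusted p = 0.146). Nod2, its relative, had 5, 17 and 9 counts in LiKM libraries, against 3, 4 and 12 counts in LiK libraries, and was not tested.

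The flagellin and secretion system sensors Naip1, Naip2, Naip5 and Naip6 had log2 fold changes of 0.52, 0.33, 0.17 and 0.34, and their partner Nlrc4 had 0.13. Nlrc3, a restraint on T cells and DNA sensing, had 0.41 (-0.012 without LiKM mouse 3), and the mitochondrial Nlrx1 had -0.06. None of these was called. Nlrp10 had 0, 1 and 1 counts in LiKM libraries, against 4, 1 and 3 counts in LiK libraries. The pseudogene Nlrp1c-ps had 6, 11 and 11 counts in LiKM libraries, against 3, 4 and 5 counts in LiK libraries. The 13 symbols left out for low counts were all of this family, among them the oocyte genes Nlrp5 and Nlrp14, with 0 to 2 counts each over all mice.

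The cytosolic DNA sensors were both higher in every LiKM mouse, and Tmem173 was called. Tmem173 encodes STING, the relay that turns cyclic dinucleotides made by the DNA sensor cGAS into interferon and NF-kB signals. It had 3.43, 3.95 and 4.29 CPM in LiKM mice, against 2.21, 1.81 and 2.01 CPM in LiK mice. The groups did not overlap, and the LiK mice lay close together. Tmem173 rose by 0.95 (SE 0.21) on the log2 scale (edgeR, Benjamini-Hochberg adjusted p = 0.0445). The call was lost in all 6 fits that leave out 1 mouse (adjusted p from 0.078 to 0.152), with no expression filter, and with the mouse numbers as a block.

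Aim2, which builds an inflammasome on cytosolic DNA, had 1.88, 2.13 and 3.47 CPM in LiKM mice, against 1.06, 1.26 and 1.52 CPM in LiK mice. Each LiKM mouse was above each LiK mouse, but edgeR did not call it (log2 fold change 0.96, SE 0.32, adjusted p = 0.136; 0.62 without LiKM mouse 3). No row carries the symbol Mb21d1, an older name of the gene for cGAS. The row E330016A19Rik, which RefSeq lists as another name of that gene, was not counted among the members. It had 0.564, 1.09 and 0.771 CPM in LiKM mice, against 0.530, 0.352 and 1.07 CPM in LiK mice, which overlapped.

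No NF-kB subunit gene passed edgeR's test, although 3 of the 5 were higher at an unadjusted p under 0.05, beside 15.4% of all genes. DESeq2 called 2 higher, beside 8.98% of all genes, and limma-voom 0. The subunits act in pairs: Rela and Nfkb1 form the classical dimer, Rel is its relative in lymphoid and myeloid cells, and Relb and Nfkb2 form the non-canonical dimer. Relb had 3.01, 4.17 and 11.6 CPM in LiKM mice, against 1.59, 0.604 and 2.22 CPM in LiK mice. Nfkb2 had 12.1, 10.8 and 33.9 CPM in LiKM mice, against 9.63, 6.49 and 8.13 CPM in LiK mice. In both genes LiKM mouse 3 was by far the highest, and the groups did not overlap.

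Relb had a log2 fold change of 2.07 (SE 0.62, edgeR adjusted p = 0.106) and Nfkb2 one of 1.23 (SE 0.44, edgeR adjusted p = 0.162). Without LiKM mouse 3 they were 1.25 and 0.49. Exons of Nfkb2 overlap those of Psd on the other strand, which limits its count in the same way as for Myd88. Nfkb1 had 30.8, 39.0 and 48.7 CPM in LiKM mice, against 28.1, 29.3 and 27.7 CPM in LiK mice. The LiK mice hardly varied while the LiKM mice spread upwards, and the log2 fold change of 0.48 was not called (edgeR adjusted p = 0.151) and was 0.28 without LiKM mouse 3.

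Rela, the subunit with the highest level per exon length, had 50.3, 47.8 and 62.9 CPM in LiKM mice, against 54.3, 46.4 and 46.2 CPM in LiK mice. These overlapped, and the log2 fold change of 0.13 (95% interval -0.19 to 0.46) became -0.017 without LiKM mouse 3. Rel had a log2 fold change of 0.11 (95% interval -0.56 to 0.79).

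The feedback genes, which NF-kB switches on and which then restrain or redirect it, did not pass the test. None of the 3 was called by edgeR, beside 5.11% of all genes called higher, and 1 was higher at an unadjusted p under 0.05, beside 15.4%. DESeq2 and limma-voom each called that one, Tnfaip3, higher, beside 8.98% and 7.85% of all genes. With 3 genes, these counts say little about the group. Tnfaip3, which encodes the ubiquitin editor A20, had 8.93, 12.4 and 7.14 CPM in LiKM mice, against 6.12, 5.28 and 3.90 CPM in LiK mice. The groups did not overlap, and here LiKM mouse 3 was the lowest of its group. Its log2 fold change was 0.90 (SE 0.26, edgeR adjusted p = 0.0942).

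Nfkbia, which encodes the inhibitor that holds NF-kB in the cytosol, had 54.8, 50.5 and 33.0 CPM in LiKM mice, against 57.0, 45.5 and 66.7 CPM in LiK mice. LiKM mouse 3 was the lowest of all mice, and the groups overlapped (log2 fold change -0.29, 95% interval -0.81 to 0.22). Nfkbiz, a nuclear cofactor of NF-kB, had 15.6, 13.6 and 17.2 CPM in LiKM mice, against 13.1, 14.4 and 11.1 CPM in LiK mice, which also overlapped (0.26).

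Promoters are shown for a pair of genes that were highest in LiKM mouse 3, Tlr2 and Nfkb2, and for a pair that were lowest there among LiKM mice, Tnfaip3 and Nfkbia. All 4 are RefSeq windows for GRCm38.p6, printed 5′ to 3′ on the gene's strand, with matches to the 10-base kappaB consensus, the binding motif of NF-kB, in capitals. They lie at chr3:83841559-83841858 (minus strand), chr19:46304487-46304786 (plus strand), chr10:19015361-19015660 (minus strand) and chr12:55492598-55492897 (minus strand), in that order.
Tlr2: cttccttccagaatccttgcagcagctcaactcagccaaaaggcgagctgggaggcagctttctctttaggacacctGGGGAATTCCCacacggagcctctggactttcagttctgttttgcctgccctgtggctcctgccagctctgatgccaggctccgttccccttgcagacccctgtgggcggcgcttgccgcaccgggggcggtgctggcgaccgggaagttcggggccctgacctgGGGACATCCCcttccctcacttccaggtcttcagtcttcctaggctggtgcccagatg
Nfkb2: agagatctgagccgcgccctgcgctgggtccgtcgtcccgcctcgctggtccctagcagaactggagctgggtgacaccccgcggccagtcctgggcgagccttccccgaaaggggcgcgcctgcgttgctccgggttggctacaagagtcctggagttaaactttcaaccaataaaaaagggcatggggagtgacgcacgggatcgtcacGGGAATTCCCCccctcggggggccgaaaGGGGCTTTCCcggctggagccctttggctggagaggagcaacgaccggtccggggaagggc
Tnfaip3: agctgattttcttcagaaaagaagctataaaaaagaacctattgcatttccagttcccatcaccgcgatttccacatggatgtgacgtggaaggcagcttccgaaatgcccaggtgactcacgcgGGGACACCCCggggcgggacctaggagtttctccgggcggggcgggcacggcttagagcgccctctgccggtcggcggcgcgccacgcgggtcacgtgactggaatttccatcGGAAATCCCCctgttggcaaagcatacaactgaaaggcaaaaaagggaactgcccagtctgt
Nfkbia: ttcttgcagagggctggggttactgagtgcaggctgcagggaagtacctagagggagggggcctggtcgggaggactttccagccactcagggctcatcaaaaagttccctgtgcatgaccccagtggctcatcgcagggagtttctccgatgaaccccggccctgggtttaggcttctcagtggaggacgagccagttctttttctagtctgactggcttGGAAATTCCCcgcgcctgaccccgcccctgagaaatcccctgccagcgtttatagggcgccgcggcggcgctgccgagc
The Tlr2 window held 3 matches, 2 of which overlap within 1 run of capitals. The Nfkb2 window also held 3, again with 2 that overlap, while Tnfaip3 had 2 and Nfkbia had 1. Genes of both pairs thus carry the motif. By gene, it was in a window of 9 of the 37 members (24.3%), Irak1, Naip5, Nfkb2, Nfkbia, Nlrp3, Rel, Tlr2, Tlr3 and Tnfaip3, beside 9.55% of genes with a window. Windows of a gene with several starts can overlap and share a match, as those of Irak1 and Nfkb2 do. Of the other motifs searched, the GAS element of STAT factors (TTCNNNGAA) was in 8 of the 37 (21.6%, beside 9.55%), the ISRE core of interferon responses in 3 (8.11%, beside 3.99%) and the p53 half-site in 6 (16.2%, beside 9.55%). All were searched on both strands and chosen after the expression values were seen, and a match shows neither binding nor a cause.

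LiKM mouse 3 set the upper end for many of these genes. It had the highest level of the 6 mice in 22 of the 44 tested members (50%), beside 22.9% of all genes tested. LiKM mice 1 and 2 had it in 3 and 8 members, beside 11.9% and 17.1% of all genes. Because all 6 mice are compared, the count of 22 also holds the members' lean towards LiKM. In 5 of them its level was at least 2-fold above the mean of LiKM mice 1 and 2: 2.19-fold for Nlrp3, 2.75-fold for Cd14, 2.95-fold for Nfkb2, 3.25-fold for Tlr2 and 3.22-fold for Relb. The members varied a little more among LiKM mice, with a median coefficient of variation of 22.8% in LiKM and 18.1% in LiK, and 25 of 44 were more variable in LiKM.

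Among the 20 tested NF-kB target genes that are not members, LiKM mouse 3 was the highest LiKM mouse in 13, beside 38.2% of all genes, and the lowest in 3, Vcam1 and Saa3 among them. It lay at least 2-fold above the mean of the other LiKM mice in 4 targets, Il1b, Cxcl1, Ccl2 and Ier3. Il1b, the cytokine that inflammasomes activate, had 1.46, 2.09 and 11.5 CPM in LiKM mice, against 0.385, 0.856 and 1.23 CPM in LiK mice. EdgeR did not call it (log2 fold change 2.58, adjusted p = 0.137; 1.07 without LiKM mouse 3), and DESeq2 did. Ccl2, which attracts monocytes, had 1.17, 1.86 and 5.64 CPM in LiKM mice, against 0.337, 0.201 and 0.287 CPM in LiK mice, and was called higher (log2 fold change 3.36, edgeR adjusted p = 0.0384; 2.41 without LiKM mouse 3). It was called in 2 of the 6 fits that leave out 1 mouse. Summed neutrophil markers were highest in LiKM mouse 3 as well, with 6.30, 8.67 and 18.7 CPM in LiKM mice, against 14.3, 7.25 and 5.50 CPM in LiK mice. Summed Kupffer cell and macrophage markers were instead lowest there among LiKM mice, at 613 CPM, against 785 and 812 CPM in LiKM mice 1 and 2. The part of these cell types in the levels of LiKM mouse 3 was not tested.

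**Figure D3:**
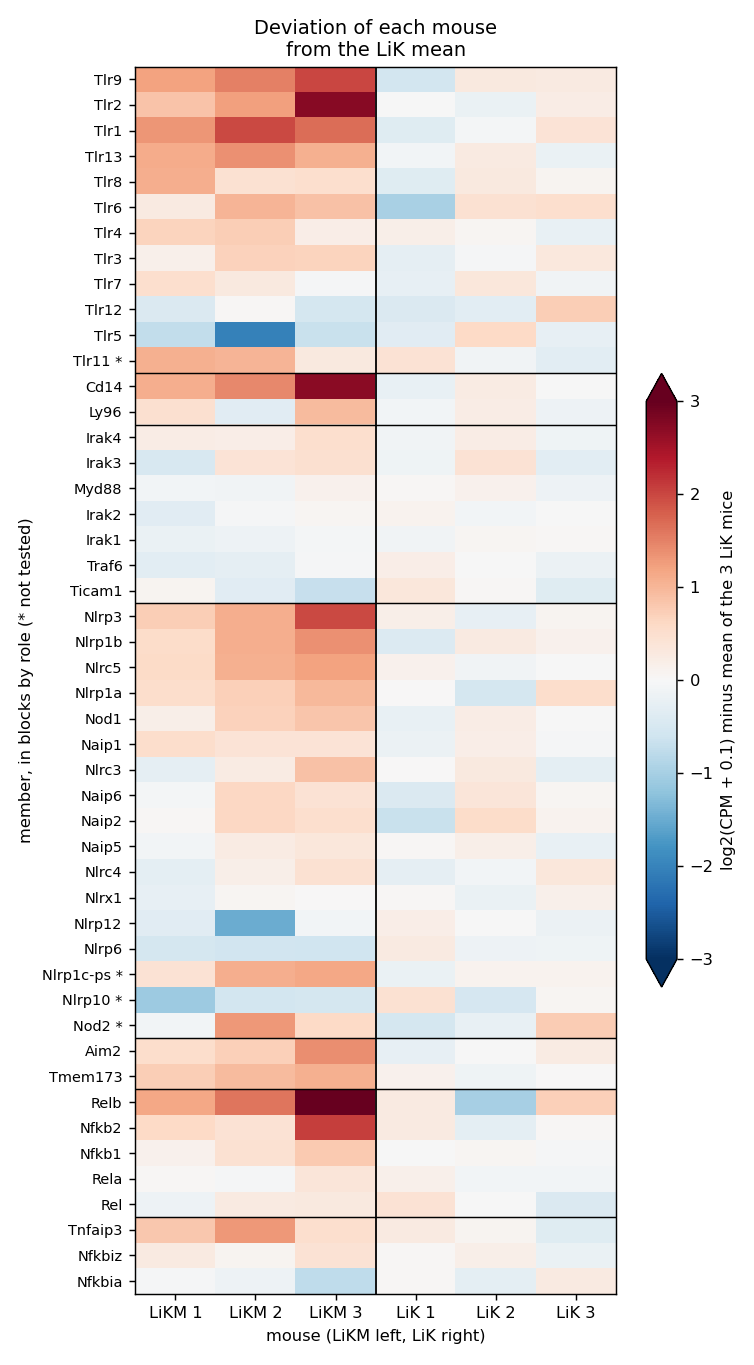
Log2 level of each of the 48 genes in each mouse minus the mean of the 3 LiK mice (a small constant was added to CPM before the log; asterisks mark untested genes), with LiKM mice in the left columns and LiK mice in the right. The deepest red cells lie in the column of LiKM mouse 3, at Tlr2, Cd14, Relb and Nfkb2, and the adaptors and kinases stay pale in all 6 mice.

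Per length of exon, the order of the levels was headed by genes that edgeR did not call. Levels between genes are compared here as mean CPM per kilobase of exon, with exon lengths of GENCODE vM21. Nlrp6, called lower by DESeq2 and limma-voom only, had the highest level, 34.5 in LiKM and 51.7 in LiK. Next came Nfkbia, with 28.6 in LiKM and 35.0 in LiK, then Rela (17.5 in LiKM and 15.9 in LiK) and Irak1 (14.6 in LiKM and 16 in LiK). The called genes stood lower in that order, with 6.22 in LiKM and 3.16 in LiK for Nlrc5 and below 2 for the other three.

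The Toll-like receptors were scarce throughout. In LiKM livers the highest were Tlr2 at 2.11, Tlr3 at 1.43 and Tlr12 at 1.05 CPM per kilobase, and in LiK livers they were Tlr12 at 1.39, Tlr3 at 1.00 and Tlr5 at 0.798. Cd14 had 4.91 in LiKM livers and 1.26 in LiK livers on this scale. A level of at least 1 was reached by 25 members in LiKM and 21 in LiK. Exons of 9 members overlap a gene on the other strand in this annotation, Nlrc5 among them over 78 of its 8493 exon bases.

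**Figure D4:**
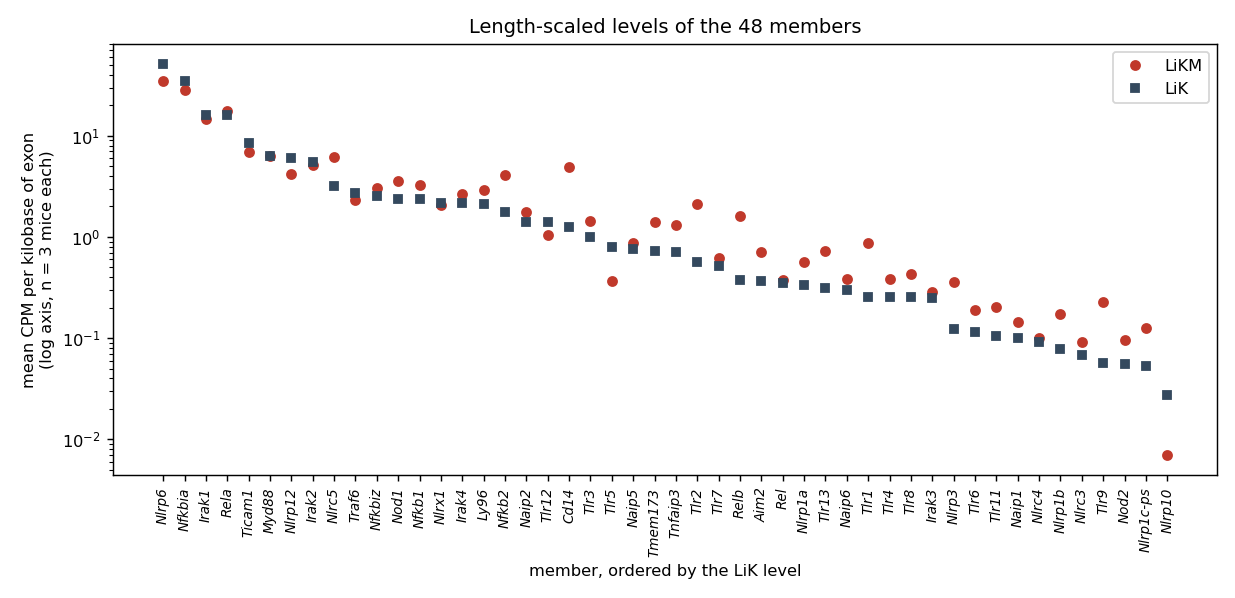
Mean level in CPM per kilobase of exon (log axis, n = 3 mice each) of the 48 genes in LiKM (circles) and LiK (squares), ordered by the LiK level. Nlrp6 leads in both genotypes (34.5 in LiKM and 51.7 in LiK), and the circles of Relb, Tlr9, Cd14, Tlr2 and Tlr1 lie furthest above their squares.

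Other genes of the same pathways held few edgeR calls. The shares called higher were 4%, 3.45% and 7.69% in the groups below, in their order, beside 5.11% of all genes. Of 25 tested further genes of Toll-like receptor signalling, 1 rose and 0 fell in edgeR's test (7 higher and 2 lower at an unadjusted p under 0.05; 2 higher and 0 lower by DESeq2 and by limma-voom). It was Ikbke, a kinase that activates interferon regulatory factors, with 60.2, 65.2 and 80.9 CPM in LiKM mice, against 36.1, 32.5 and 31.3 CPM in LiK mice (log2 fold change 1.05, edgeR adjusted p = 0.0153). Of 29 further genes of NF-kB signalling, 1 rose, the adaptor gene Traf1 (log2 fold change 1.74, edgeR adjusted p = 0.0386). In this group 4 were higher and 2 lower at an unadjusted p under 0.05, and DESeq2 called 3 higher and 0 lower. Of 13 inflammasome effectors that are not members, 1 rose, Pycard, which encodes the adaptor ASC that links sensors to caspase 1 (1.69, edgeR adjusted p = 0.0378). Of these 13, 5 were higher and 1 lower at an unadjusted p under 0.05, and DESeq2 called 3 higher and 0 lower. Over all genes, 15.4% were higher and 7.05% lower at an unadjusted p under 0.05, and DESeq2 called 8.98% and 2.79%. Casp1 itself (0.40), Gsdmd, which encodes a pore-forming protein (0.17), and Il18 (-0.40) were not called. In the fits that leave out 1 mouse, Ikbke was called in 3 of 6, Traf1 in 1 and Pycard in 1.

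Partners of RNA and DNA sensing had 3 of 14 called higher (21.4%, beside 5.11% of all genes). These were Zbp1, a sensor of left-handed nucleic acids, with a log2 fold change of 1.22, Samhd1, which depletes nucleotides, with 0.70, and Ifi204, a DNA sensor of mice, with 0.68. Leaving out 1 mouse, Zbp1 was called in 3 of 6 fits, Samhd1 in 1 and Ifi204 in 0. Target genes of NF-kB held more calls. Of 20 that are not members, 10 rose and 0 fell by edgeR (15 higher and 2 lower at an unadjusted p under 0.05; 11 higher and 1 lower by DESeq2; 10 higher and 0 lower by limma-voom), with a median log2 fold change of 1.46, beside -0.003 over all genes. This list was chosen with earlier results of these data known, and several of its genes mark T cells or respond to interferon as well.

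The chemokine gene Ccl5, also a marker of T cells, had 5.87, 9.48 and 10.8 CPM in LiKM mice, against 0.385, 0.352 and 0.246 CPM in LiK mice. The adhesion gene Icam1 had 26.7, 40.6 and 49.0 CPM in LiKM mice, against 11.0, 14.1 and 12.2 CPM in LiK mice. Neither gene overlapped between the genotypes, with log2 fold changes of 4.72 and 1.64. Vcam1 (1.17), Cxcl10 (2.33), Cxcl1 (1.86), Csf1 (1.23), Cd83 (1.69), Bcl2a1b (2.20), Traf1 and Ccl2 also rose. The acute phase genes Saa3 and Lcn2 did not follow them. Saa3 had 7.89, 5.63 and 5.50 CPM in LiKM mice, against 174, 157 and 4.10 CPM in LiK mice, so that LiK mice 1 and 2 stood far above LiK mouse 3. EdgeR did not call it (log2 fold change -4.14, adjusted p = 0.0806), while DESeq2 called it lower. The target Sod2 also lay lower in each LiKM mouse, with 159, 156 and 138 CPM in LiKM mice, against 203, 179 and 175 CPM in LiK mice. Sod2 was not called (log2 fold change -0.30, edgeR adjusted p = 0.182). Without LiKM mouse 2, LiK mouse 1 or LiK mouse 2, 1 target was called higher, and without LiK mouse 3, 6 were called higher and 2 lower, Saa3 and Lcn2. Ccl5 was called in all 6 fits that leave out 1 mouse.

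Markers of some immune cells and of stellate cells were also higher in LiKM livers. Of 14 Kupffer cell and macrophage markers 7 rose, of 9 recruited monocyte markers 3 and of 9 dendritic cell markers 2. The 7 were Cd68, C1qa, C1qb, C1qc, Lyz2, Tyrobp and Fcer1g. The rest of that list, with the Kupffer cell genes Clec4f, Vsig4, Timd4, Cd5l and Marco, was not called (log2 fold changes 0.36 to 2.01). Of 11 T and NK cell markers 9 rose, and of 8 stellate cell markers 3, beside 5.11% of all genes called higher. Log2 fold changes of the T and NK cell markers were positive in 10 of the 11 and negative in 1, Cd4. Cd4 had a mean of 1.73 CPM in LiKM mice and 3.34 CPM in LiK mice, the highest of that list in LiK. It was not called (log2 fold change -0.94, edgeR adjusted p = 0.234). The NK cell genes Ncr1 and Klrb1c were too scarce to be tested, so a rise of NK cells was not tested with them. Summed Kupffer cell and macrophage markers ranged from 613 to 812 CPM in LiKM mice and from 400 to 519 CPM in LiK mice. Dendritic cell markers ranged from 80.4 to 105 CPM in LiKM mice and from 24.6 to 31.6 CPM in LiK mice, most of it H2-Ab1, which macrophages and B cells also express. T and NK cell markers ranged from 16.6 to 23.5 CPM in LiKM mice and from 4.31 to 7.66 CPM in LiK mice, and stellate cell markers from 584 to 620 CPM in LiKM mice and from 223 to 361 CPM in LiK mice. In these 4 sums the genotypes did not overlap. Called Kupffer cell and macrophage markers numbered 0 to 7 and called T and NK cell markers 0 to 8 when 1 mouse was left out. The lowest numbers (0 and 0 to 1) came without LiKM mouse 2, LiK mouse 1 or LiK mouse 2. Without LiK mouse 3 they numbered 2 and 5, and without LiKM mouse 1 they numbered 3 and 5. Called stellate cell markers numbered 0 without LiKM mouse 1, LiKM mouse 2, LiK mouse 1 or LiK mouse 2. Called monocyte markers numbered 0 to 2 in these fits, lowest without LiKM mouse 2, LiK mouse 1 or LiK mouse 2, and of the dendritic cell markers H2-Ab1 was called in all 6 and Itgax in 0.

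The other sums overlapped. Recruited monocyte markers ranged from 203 to 294 CPM in LiKM mice and from 148 to 329 CPM in LiK mice, and most of it was Ccl9 and Spp1, the second of which cholangiocytes also express. B cell markers ranged from 8.62 to 11.0 CPM in LiKM mice and from 3.71 to 11.2 CPM in LiK mice. Of the 8 hepatocyte markers, Serpina1c fell (called in 1 of the 6 fits that leave out 1 mouse). Log2 fold changes were negative in 6 of the 8 and positive in 2, with a median of -0.28. In 3 of the 8 each LiKM mouse lay below each LiK mouse, beside 11.8% of all genes. DESeq2 called 2 of the 8 lower and limma-voom 1. Of 4 neutrophil, 7 B cell, 8 endothelial and 6 cholangiocyte markers edgeR called none. At an unadjusted p under 0.05, 0, 1, 3 and 3 were higher, beside 15.4% of all genes, and 1 endothelial marker was lower, beside 7.05%. DESeq2 called 0, 0, 0 and 2 higher, beside 8.98%, and limma-voom 0, 0, 1 and 0. The cholangiocyte markers had a median log2 fold change of 1.05. In 4 of those 6 each LiKM mouse lay above each LiK mouse, beside 17.8% of all genes. No marker was at 0 in all mice. The part of these cell types in the levels of the receptors and NF-kB genes was not tested.

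**Figure D5:**
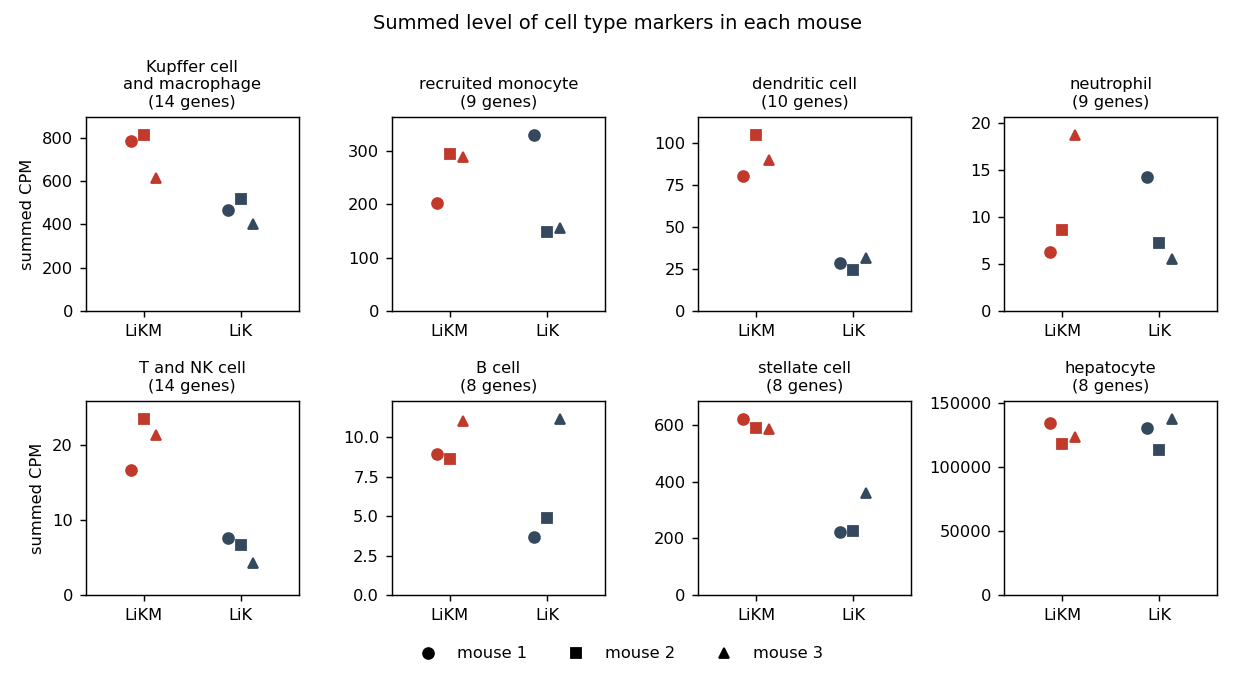
Summed CPM (linear axes from 0) of the markers of 8 cell types in each mouse, LiKM left and LiK right in each panel; marker shapes show the mouse number. Kupffer cell and macrophage, dendritic cell, T and NK cell and stellate cell sums are higher in each LiKM mouse than in any LiK mouse. Those of Kupffer cells and macrophages are 613 to 812 CPM in LiKM and 400 to 519 CPM in LiK, and the other sums overlap.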

How the data were processed

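Whole-liver RNA of 3 LiKM and 3 LiK mice was sequenced, with libraries from a stranded messenger RNA kit, per the labels' protocols. FastQC 0.11.7 and featureCounts were used, per the submitters' processing notes. Aligner, genome build, gene annotation and strand setting: not given in the sources used here. Raw read counts per gene symbol, in 1 table, are what the authors deposited, and they were used as they stood, and 0 columns were left unused. Each title gives its mouse a separate code, so libraries were treated as separate animals.

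Genes were kept with the default filter of edgeR 4.0.16 in R 4.3.3 (a count of about 10 in at least 3 libraries and a total of at least 15), which left 13537 genes. They were compared with edgeR's quasi-likelihood test after TMM scaling (factors 0.903 to 1.11), with genotype as the only term. Calls were made at an adjusted p under 0.05, by Benjamini-Hochberg over all genes tested. Fold changes are LiKM over LiK, and standard errors come from the coefficient and its F statistic. The common biological coefficient of variation was 22.3%, and sampling noise adds to it for members with few counts. The scripts were tested on simulated data.

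The members and gene lists were chosen with earlier results of these data known. Values in every mouse are given for called members, the 3 highest in CPM of each role, and non-overlapping members with a log2 fold change of at least 1 in size. From other lists come up to 4 called genes, or, with none called, the 2 highest in CPM. Tlr4, Tlr11, Nod1, Nod2, Nlrp10, Nlrp1c-ps, Myd88, E330016A19Rik, Il1b, Ccl2, Ier3, Saa3, Lcn2, Sod2, Alb, Casp1, Gsdmd, Il18, Cxcl1, Csf1, Cd83 and Bcl2a1b were named after their values were seen. So were Cd68, C1qb, C1qc, Clec4f, Vsig4, Timd4, Cd5l, Marco, Cd4, Ncr1 and Klrb1c. Alternatives were other scalings, DESeq2 1.42.0, limma-voom (limma 3.58.1), a test against a 1.5-fold change, other filters, a block, and leaving out each mouse. Promoters come from RefSeq for GRCm38.p6 and exon lengths from GENCODE vM21. All 48 members matched the annotation by symbol, and 37 had a promoter window.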

Additional observations from a re-analysis of the deposited data

How the results depend on the processing

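With 3 mice a genotype, single mice decided most calls. Leaving out 1 mouse gave 0 to 3 members called higher and 0 called lower, against 4 and 0 with all mice. Members whose genotypes do not overlap then numbered 19 to 24 higher and 2 to 5 lower, against 18 and 2. With fewer mice this grew for all genes too, to 19.6% to 24.3% higher and 15.9% to 20.3% lower, against 17.8% and 11.8%. DESeq2's Wald test called 11 members higher and 1 lower, limma-voom with sample weights 5 higher and 1 lower, and the test against a 1.5-fold change 0 in either direction. Over all genes, 692 higher and 110 lower became 1214 and 377 with DESeq2, 1063 and 260 with limma-voom, 115 and 12 against a 1.5-fold change, and 1039 and 63 with library totals only. Leaving out 1 mouse gave 18 to 525 higher and 1 to 101 lower.

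Library totals shifted the median of all genes by 0.16 on the log2 scale and called 6 members higher, adding Cd14 and Tlr9. Irak1 turned to 0.023 and Irak2 to 0.064 there, both below that shift. With 1 mouse left out, Tlr12 ranged from -0.63 to 0.082 (without LiK mouse 3) and Rela from -0.017 (without LiKM mouse 3) to 0.21. The cause of these differences was not tested. DESeq2's size factors, upper quartile scaling and a floor of 1 CPM in 3 libraries each called the same 4 members, and no filter called Cd14 in place of Tmem173. Of the 44 members' fold changes under the alternatives, 592 kept their direction and side of the threshold, 26 lost the call, 17 gained it and 18, in 10 uncalled members, turned in sign. Besides those above these were Irak3 (-0.019) and Nlrc3 (-0.012) without LiKM mouse 3, Rel (-0.091) without LiK mouse 3, Nlrc4, Nlrx1 and Myd88.

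Whether the mouse numbers pair the mice was not settled, because deviations from a mean of 3 mice cannot decide it. Same-numbered mice correlated at 0.288, 0.00609 and 0.138 in their deviations from the group means, and differently numbered mice at -0.217 to 0.0445. LiKM mouse 2 did not correlate best with its own number, and the main fit used no block. With the replicate block, 5 members were called higher (Cd14, Nlrc5, Relb, Tlr1 and Tlr13) and 0 lower, with 669 higher and 166 lower over all genes. Depth limits the scarce members, such as Tlr9.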
